A study of Homo sapiens with 15 samples.

Results

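The nuclear genes for subunits of the mitochondrial respiratory chain and of the ATP synthase were taken from the deposited table as its protein-coding rows with a symbol of the NDUFA, NDUFB, NDUFC, NDUFS or NDUFV series, SDHA to SDHD, the UQCR series, COX4 to COX8 subunits, or the ATP5 series. The rule found 90 genes of 58735. Of these, 80 had enough reads to be tested, among 15565 tested genes in all. They were placed by complex, with 37 genes in complex I (35 tested), 4 in complex II (4 tested), 9 in complex III (9 tested), 19 in complex IV (13 tested) and 21 in complex V, the ATP synthase (19 tested). NDUFA4 and NDUFA4L2 were counted with complex IV, since NDUFA4 is a cytochrome c oxidase subunit despite its name. The rule also takes in 3 genes whose products are not structural subunits in the strict sense: ATP5IF1, the inhibitor of the ATP synthase, ATP5S, and COX7A2L, a factor of supercomplex assembly.

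The cells were A549, a line established from a human lung adenocarcinoma, and RNA was sequenced in 15 libraries, 3 in each of 5 groups. Cells of the CDSUM, CDWIN, CQSUM and CQWIN groups received fine particulate matter (PM2.5) of that code at 100 µg/mL for 24 h, and cells of the DMSO group received an equal volume of the solvent, dimethyl sulfoxide. What the codes stand for is not stated in the labels. The labels also do not tell whether libraries of 1 group are separate cultures, so p-values measure the spread between these libraries, which may be technical, and all groups share 1 cell line.

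The respiratory chain passes electrons from NADH (complex I) and succinate (complex II) through complex III to oxygen at complex IV. Complexes I, III and IV pump protons across the inner mitochondrial membrane, and the ATP synthase uses their return to make ATP. Most subunits are encoded in the nucleus and imported, while the rest are encoded in the mitochondrial genome, so each complex except complex II is built from the products of both genomes.

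Libraries held 17583532 to 19216323 counted reads. The 9 defining markers of alveolar type II cells, the cell type in the labels, were mostly absent: 7 stayed under 1 CPM (reads scaled to the size of the library) in every library, SFTPA1 and SFTPA2 had no read in any of 15 libraries, and ABCA3 had 37.0 to 84.6 CPM. Of the 6 epithelial markers, the keratins were abundant, with KRT8 at 2799 CPM or more in every library. The others were low, with EPCAM at 0.817 to 5.51 CPM, CLDN4 at 2.44 to 9.17 CPM and CDH1 at 6.51 to 31.7 CPM. The summed level of the 6, almost all of it keratin reads, was 4140 to 6338 CPM in the 12 PM2.5 libraries and 9696 to 11769 CPM in DMSO libraries. Leukocyte markers (7 genes, 5 of them under 1 CPM everywhere) summed to 6.83 to 16.4 CPM in PM2.5 libraries and 11.004 to 14.2 CPM in DMSO libraries, fibroblast markers (6 genes, 4 under 1 CPM everywhere) to 3.74 to 9.40 CPM in PM2.5 libraries and 9.91 to 16.8 CPM in DMSO libraries, and endothelial markers (4 genes, 3 under 1 CPM everywhere) to at most 1.11 CPM in PM2.5 libraries and 0.211 CPM in DMSO libraries. The part of these differences in the results below was not tested. In bulk RNA, fewer cells of a type and less RNA per cell cannot be told apart.

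Most of the 80 tested genes were higher than in DMSO in CDSUM, CDWIN and CQSUM, while in CQWIN 52 of them were called in neither direction. A gene was called at an edgeR quasi-likelihood adjusted p under 0.05 over all tested genes. Against DMSO, 59 members were higher and 1 lower in CDSUM, where 15.3% of all tested genes were called higher and 31.2% lower. In CDWIN 61 were higher and 1 lower, with 18.4% and 23.3% of all tested genes. In CQSUM the counts were 45 higher and 1 lower, with 13.7% and 18.8% of all tested genes, and in CQWIN 26 higher and 2 lower, with 11.6% and 15.8%. The median log2 fold change of the 80 genes was 0.86 in CDSUM, 0.92 in CDWIN, 0.59 in CQSUM and 0.49 in CQWIN, beside medians over all tested genes of −0.25, −0.11, −0.00 and 0.02. With the size factors of DESeq2 in place of the trimmed mean of M-values (TMM), the all-gene medians were −0.10, −0.04, 0.08 and 0.08 and the member medians 1.01, 0.99, 0.67 and 0.55. The 4 comparisons share the same 3 DMSO libraries. The reads of the 90 genes together were 2.10% to 2.19% of a library in CDSUM, 1.997% to 2.12% in CDWIN, 1.63% to 2.01% in CQSUM, 1.28% to 2.01% in CQWIN and 1.24% to 1.43% in DMSO.

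**Figure D1:**
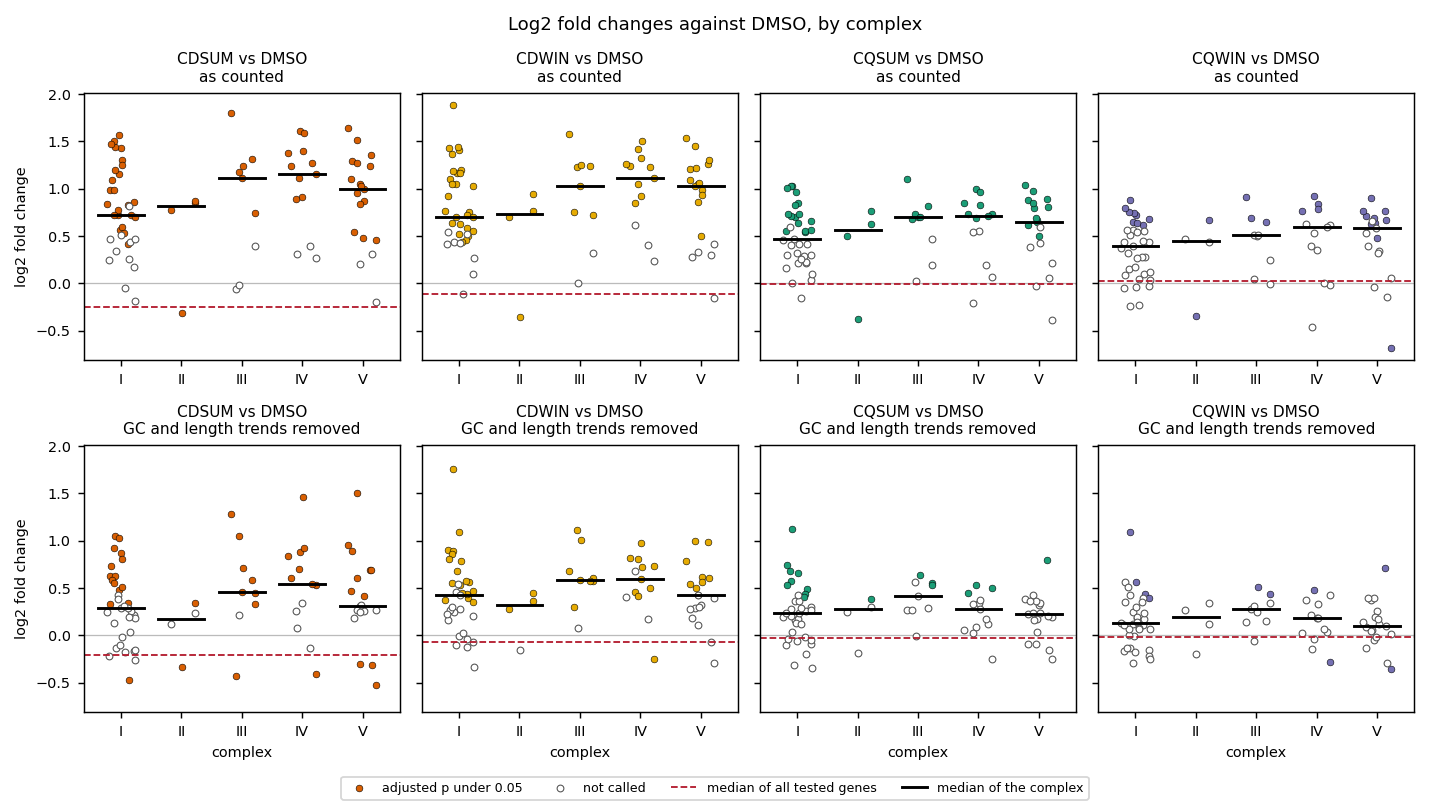
Log2 fold change of each of the 80 tested genes against DMSO (vertical axis) by complex (horizontal axis), as counted in the upper row and with GC and length trends removed in the lower row; filled points had an adjusted p under 0.05, black bars are medians of a complex and the dashed line is the median of all tested genes. In the upper row every complex median lies above the dashed line in all 4 comparisons, and in the lower row the member medians were 0.33 in CDSUM, 0.44 in CDWIN, 0.26 in CQSUM and 0.14 in CQWIN.

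The libraries of a PM2.5 group and of DMSO did not overlap for 65 members higher and 1 lower in CDSUM (21.3% and 40.5% of all tested genes), 67 and 1 in CDWIN (22.9% and 29.7%), 55 and 2 in CQSUM (23.7% and 28.1%), and 9 and 2 in CQWIN (16.7% and 22.1%). In CQWIN the libraries differed widely among themselves: relative to the mean of all 15 libraries, the median of the 80 genes on the log2 scale was 0.36 in CQWIN 1, −0.15 in CQWIN 2 and −0.77 in CQWIN 3, beside −0.66, −0.38 and −0.64 in DMSO 1, 2 and 3. CQWIN 3 sat below the DMSO libraries. Without CQWIN 3 the number of members called higher in CQWIN was 62, with 24.3% of all tested genes, and without CQWIN 1 it was 2, with 5.4%. In CQSUM, CQSUM 2 (0.34) stood above CQSUM 1 (−0.18) and CQSUM 3 (−0.12), and without it 9 members were called higher, with 6.99% of all tested genes. Leaving out DMSO 1 gave 13 in CQSUM (7.10%) and 3 in CQWIN (5.69%), and leaving out DMSO 3 gave 16 (8.64%) and 4 (7.27%). In CDSUM and CDWIN the counts stayed between 50 and 63 when any 1 library was left out, beside 10.7% to 19.4% of all tested genes called higher.

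**Figure D2:**
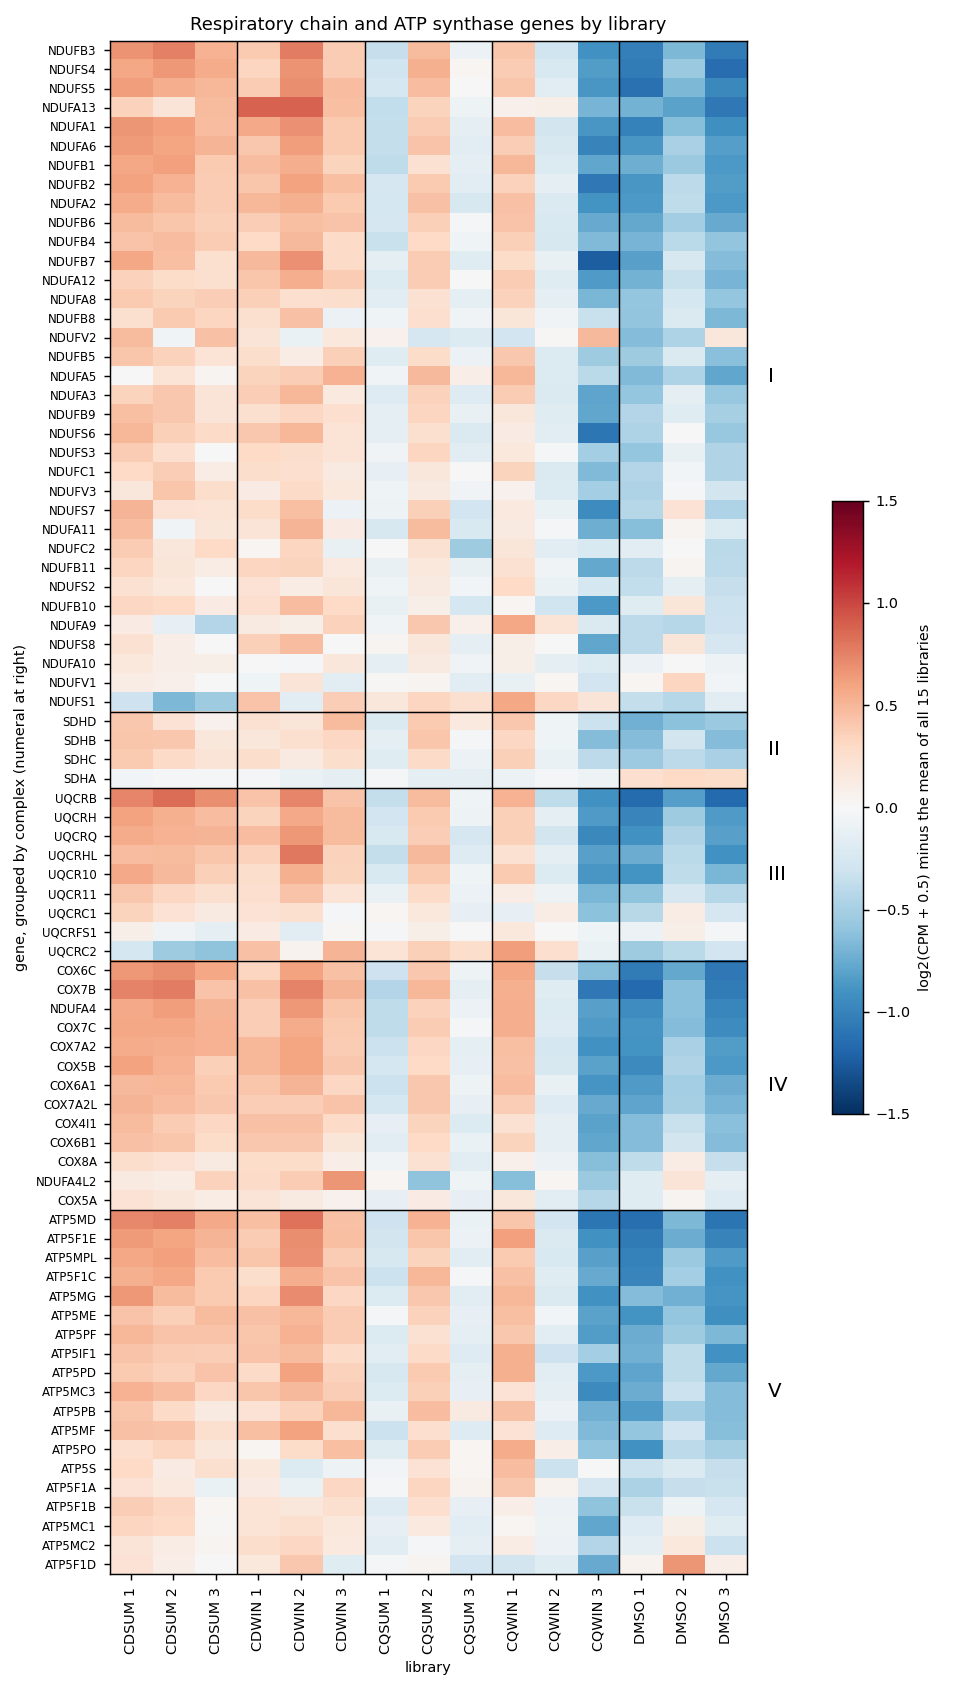
Level of each tested gene (rows, grouped by complex and ordered within it by the CDSUM fold change) in each library (columns), as log2(CPM + 0.5) minus the mean of all 15 libraries, with red above and blue below that mean. CDSUM and CDWIN libraries are mostly red and DMSO libraries and CQWIN 3 mostly blue, while SDHA runs the other way.

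The transcripts of these genes are short, with a median length of 711.5 bases (323 to 3475), against 2074.5 bases for all tested genes, at a similar GC content (median 50.8% and 50.5%). Over all tested genes, transcripts under 700 bases had a positive median log2 fold change in each of the 4 comparisons with DMSO. This holds for the median and not for every short transcript. In CDSUM, transcripts under 700 bases had a median log2 fold change of 1.05 over 37 members and 0.47 over 1573 tested genes, and those of 1500 bases or more had 0.47 over 14 members and −0.46 over 10484 tested genes. In CQWIN the same classes gave 0.54 and 0.28, then 0.18 and −0.07. In each of 4 length classes and each of the 4 comparisons the member median was above that of all tested genes.

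**Figure D3:**
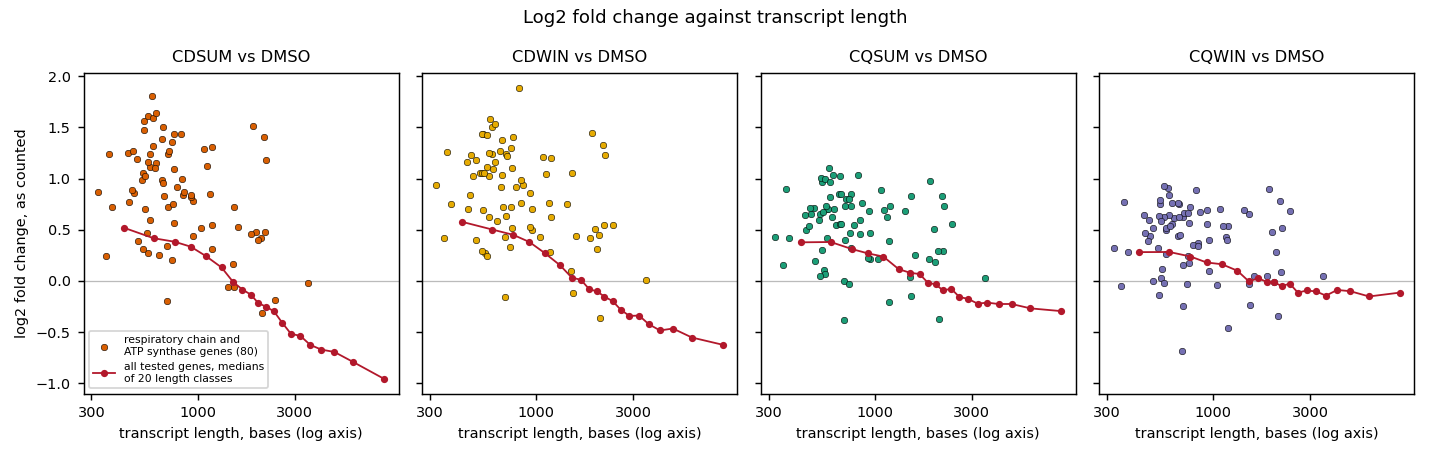
Log2 fold change against DMSO, as counted, against transcript length in bases on a log axis; points are the 80 genes and the line joins medians of 20 equal classes of all tested genes by length. Between its first and last class the all-gene line goes down to −0.96 in CDSUM, with 0.52 in the shortest class, and to −0.11 in CQWIN, with 0.28 in the shortest class, and most points lie above it.

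The length trend also differed between libraries. Per doubling of transcript length, counts moved by −0.17 to −0.09 log2 units in CDSUM libraries, −0.11 to −0.08 in CDWIN, −0.11 to 0.06 in CQSUM, −0.12 to 0.21 in CQWIN and 0.13 to 0.24 in DMSO, relative to the mean library. All 7 libraries with a positive slope had a member median below the mean of all libraries, and all 8 with a negative slope had one above it. The GC slope, per 10 percentage points, was 0.15 to 0.21 in CDSUM, −0.22 to 0.13 in CDWIN, −0.18 to −0.11 in CQSUM, −0.21 to −0.11 in CQWIN and 0.14 to 0.33 in DMSO. Within the members, Spearman's rho of log2 fold change with GC content was −0.45 in CDSUM, −0.47 in CDWIN, −0.57 in CQSUM and −0.64 in CQWIN, across 80 genes of the same libraries. With length, rho was −0.29, −0.27, −0.17 and −0.11 in the same order.

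**Figure D4:**
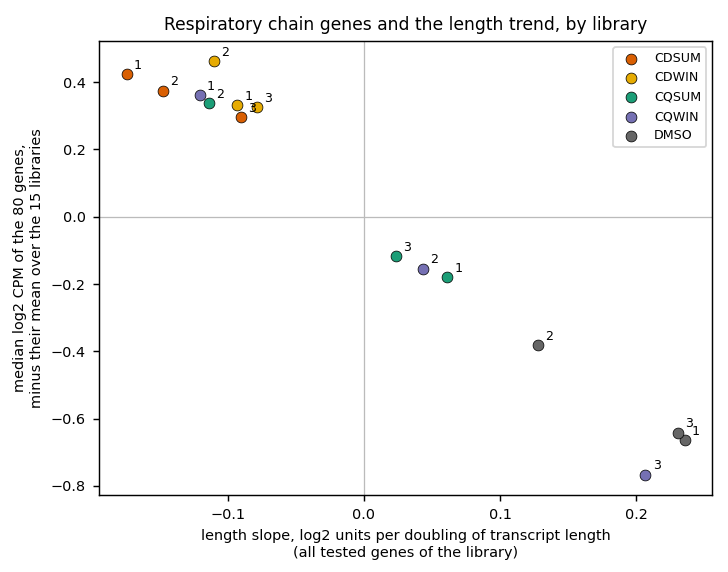
Median level of the 80 genes in each library, as log2 CPM minus its mean over the 15 libraries (vertical axis), against the library's length slope over all tested genes in log2 units per doubling (horizontal axis); numbers are replicate numbers. The 8 libraries left of 0 lie above 0 and the 7 right of 0 lie below it, with CQWIN 3 (0.21, −0.77) among the DMSO libraries.

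With both trends removed from each library, 38 members were higher and 7 lower in CDSUM (11.9% and 28.1% of tested genes), 47 and 1 in CDWIN (13.8% and 16.3%), 17 and 0 in CQSUM (7.78% and 10.2%) and 8 and 2 in CQWIN (6.87% and 8.77%). The member medians were then 0.33, 0.44, 0.26 and 0.14, beside all-gene medians of −0.21, −0.07, −0.03 and −0.02. Of the genes called higher as counted, 36 of 59 in CDSUM, 45 of 61 in CDWIN, 11 of 45 in CQSUM and 5 of 26 in CQWIN were also called higher then. The 7 called lower in CDSUM were SDHA, ATP5F1D, ATP5MC1, ATP5MC2, COX5A, NDUFA9 and UQCRC2, of which only SDHA was called lower as counted. COX5A was the member called lower in CDWIN, and COX5A and ATP5F1D were those in CQWIN. The trend removal would also take out a biological change that followed length or GC content, and such a change and a technical trend cannot be told apart in these libraries.

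By complex, as counted, the median log2 fold change in CDSUM was 0.72 for complex I, 0.81 for II, 1.11 for III, 1.16 for IV and 1.00 for V. In CQWIN the medians in the same order of complexes were 0.40, 0.45, 0.52, 0.59 and 0.58. The share called higher in CDSUM was 24 of 35 in complex I, 3 of 4 in II, 6 of 9 in III, 10 of 13 in IV and 16 of 19 in V. Over all tested genes it was 15.3%. With trends removed the CDSUM medians were 0.29, 0.18, 0.46, 0.54 and 0.31. Differences between complexes were not tested. Called higher in all 4 comparisons were 23 members, of which 7 belong to complex I, 1 to II, 2 to III, 4 to IV and 9 to V. The share of all tested genes called higher in all 4 was not computed, but it can be at most 11.6%, the share in CQWIN. The 4 comparisons also share the same DMSO libraries. With both trends removed 6 genes were called higher in all 4: NDUFA1, NDUFA13, UQCR11, UQCRQ, COX6C and ATP5ME, of which 4 were also among the 23. The share of tested genes was not computed there either, and can be at most 6.87%, the share in CQWIN.

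Complex I takes electrons from NADH through a flavin and a chain of iron-sulfur clusters held by core subunits, around which many accessory subunits are packed. The largest differences lay in accessory subunits. NDUFB3 (chromosome 2, 201071433 to 201085750), an accessory subunit of the membrane arm, had 200, 211 and 179 TMM-scaled CPM in CDSUM, 165, 213 and 163 in CDWIN, 98.6, 174 and 118 in CQSUM, and 167, 102 and 66.3 in CQWIN, against 61.0, 78.3 and 60.3 in DMSO. All CDSUM, CDWIN and CQSUM libraries were above all DMSO libraries, while CQWIN 3 fell within the DMSO range. Its log2 fold change was 1.56 ± 0.26 (SE) in CDSUM (adjusted p = 0.000404), 1.44 ± 0.26 in CDWIN, 0.97 ± 0.26 in CQSUM and 0.75 ± 0.26 in CQWIN (adjusted p = 0.0376), and 1.02, 0.54, 0.13 and −0.01 with trends removed. NDUFS4, an accessory subunit whose loss causes complex I deficiency in people, was also called higher in all 4 comparisons as counted, at 1.499 ± 0.25 in CDSUM, 1.37 ± 0.25 in CDWIN, 1.03 ± 0.25 in CQSUM and 0.75 ± 0.25 in CQWIN. Once trends were removed, NDUFS4 was not called in all 4. NDUFS5 was at 455, 432 and 417 CPM in CDSUM, against 136, 185 and 151 CPM in DMSO. NDUFA13, also known as GRIM-19, had the largest difference in CDWIN, at 1.89 ± 0.30, but few reads, with 6.29, 6.27 and 4.52 CPM in CDWIN, against 1.75, 1.603 and 1.25 CPM in DMSO. That difference was 1.75 with trends removed. NDUFA13 averaged 62.9 reads a library and shares 437 exon bases with another gene on its own strand.

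NDUFA5, an accessory subunit of the matrix arm, had 58.9, 36.2 and 31.4 CPM in CQWIN, against 26.2, 30.2 and 24.1 CPM in DMSO, without overlap, and was at 0.72 ± 0.20 in CDSUM, 1.05 ± 0.20 in CDWIN, 0.83 ± 0.20 in CQSUM and 0.65 ± 0.20 in CQWIN. With trends removed it was called in none.

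The core subunits NDUFV1 and NDUFS7 had smaller values and no call. NDUFV1, which binds the flavin that accepts electrons from NADH, had 195, 190 and 180 CPM in CDSUM, against 184, 227 and 176 CPM in DMSO, and its log2 fold change lay between −0.23 and −0.05 in the 4 comparisons, without a call in any. NDUFS7, a core iron-sulfur subunit, was at 0.52 ± 0.25, 0.43 ± 0.25, 0.22 ± 0.25 and −0.04 ± 0.25 in CDSUM, CDWIN, CQSUM and CQWIN, also without a call. NDUFS1, which holds iron-sulfur clusters at the entry of the electron path, differed between PM2.5 groups and is described with them below.

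For complex I the deposited FPKM, a level per gene length, gave an order of subunits in DMSO. NDUFS5 was highest at 269 ± 53.3 FPKM, and NDUFV2 lowest of those tested at 0.297 ± 0.142 FPKM (SD, n = 3 each). Gene lengths in that table are of all exons joined and run up to 12268 bases for NDUFS1, which lowers FPKM of genes with long rare exons. NDUFV2 averaged 22.1 reads a library while its processed pseudogene NDUFV2P1 averaged 69.8, so reads of NDUFV2 may have been assigned to the copy.

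Complex II, succinate dehydrogenase, also an enzyme of the citric acid cycle, is the complex with no subunit from the mitochondrial genome. Its subunits did not move together. SDHA (chromosome 5, 218241 to 256700), the flavoprotein that oxidises succinate, had 146, 146 and 147 CPM in CDSUM, 148, 140 and 136 in CDWIN, 148, 136 and 136 in CQSUM, and 140, 146 and 141 in CQWIN, against 178, 184 and 182 in DMSO. All 12 PM2.5 libraries were below all 3 DMSO libraries. Its log2 fold change was −0.31 ± 0.11 (adjusted p = 0.0351), −0.36 ± 0.12 (adjusted p = 0.0190), −0.37 ± 0.11 (adjusted p = 0.0196) and −0.34 ± 0.11 (adjusted p = 0.0324) in CDSUM, CDWIN, CQSUM and CQWIN, which made SDHA the only member called lower in all 4. With DESeq2 size factors it was −0.16, −0.28, −0.29 and −0.28 and was called in none, the smallest adjusted p being 0.0795. With trends removed it was called in CDSUM, at −0.33, and not in the other 3, at −0.16, −0.18 and −0.20. Leaving out any 1 library of CDSUM or DMSO ended its call in CDSUM. In CDWIN the call was lost without CDWIN 3, DMSO 2 or DMSO 3, and in CQSUM without CQSUM 2, CQSUM 3 or any 1 DMSO library. In CQWIN any 1 library of either group ended it, and without CQWIN 3 SDHA was at −0.15. Pseudogenes of SDHA held reads too, SDHAP1 averaging 116 a library and SDHA 2808.

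SDHB, the iron-sulfur subunit that takes electrons from SDHA, was higher instead, with 182, 180 and 153 CPM in CDSUM, 153, 162 and 169 in CDWIN, 124, 183 and 134 in CQSUM, and 169, 130 and 86.7 in CQWIN, against 86.6, 113 and 86.6 in DMSO. It differed from DMSO by 0.85 ± 0.20, 0.76 ± 0.20, 0.63 ± 0.20 and 0.43 ± 0.20 on the log2 scale, with a call in all but CQWIN. The membrane anchors had positive differences too, SDHC of 0.77 ± 0.17 in CDSUM and 0.47 ± 0.17, not called, in CQWIN, and SDHD of 0.87 ± 0.19 and 0.67 ± 0.19, both called. With trends removed SDHB was at 0.34, 0.36, 0.30 and 0.12 and SDHD at 0.23, 0.45, 0.39 and 0.35. SDHA has the longest transcript of the complex used here, 2067 bases, against 1153 for SDHB and 861 for SDHD.

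**Figure D5:**
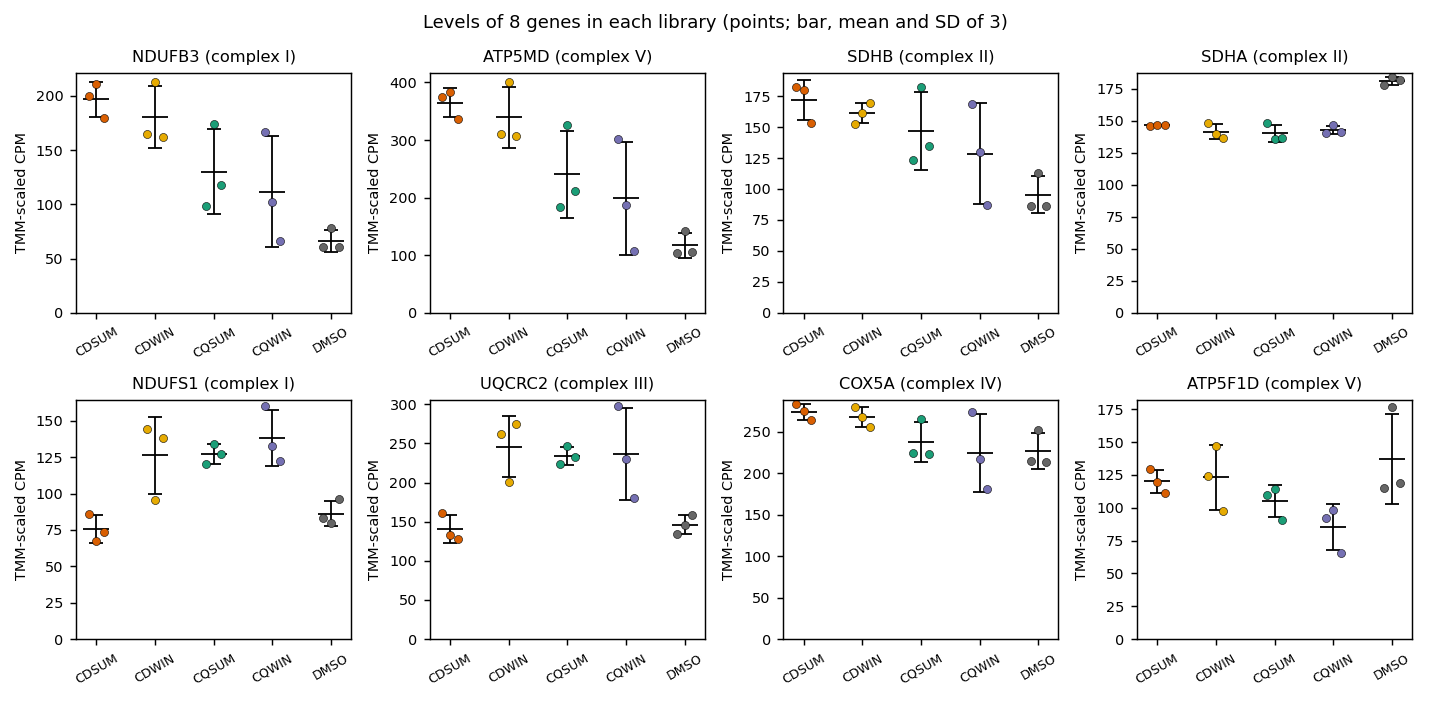
TMM-scaled CPM (vertical axis, from 0) of 8 genes in each of 3 libraries per group (points), with the mean and SD. SDHA lies between 136 and 148 in all PM2.5 libraries and at 178 or more in DMSO. NDUFS1 and UQCRC2 are near the DMSO level in CDSUM and above it in the other PM2.5 groups, except that CDWIN 2 lies within the DMSO range for NDUFS1.

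Complex III passes electrons from ubiquinol to cytochrome c. UQCRB, a subunit at the ubiquinone site, had the largest fold change of all members in CDSUM, with 521, 563 and 510 CPM in CDSUM, against 140, 176 and 140 CPM in DMSO, a log2 fold change of 1.80 ± 0.27 (adjusted p = 0.000242). It was 1.58 ± 0.27 in CDWIN, 1.10 ± 0.27 in CQSUM and 0.91 ± 0.27 in CQWIN, and 1.28, 0.68, 0.26 and 0.14 with trends removed. UQCRH, the hinge protein, and UQCRQ stood at 1.32 ± 0.24 and 1.24 ± 0.25 in CDSUM, and UQCRQ was called higher in all 4 comparisons with trends removed, although as counted it was not called in CQWIN. UQCRHL, close in sequence to UQCRH, had 15.02, 15.1 and 14.4 CPM in CDSUM, against 6.199, 8.02 and 5.501 CPM in DMSO, and its reads and those of UQCRH may have been split between them. UQCRFS1 and UQCRC1 were called in no comparison as counted. UQCRFS1, the Rieske iron-sulfur protein, had 414, 377 and 355 CPM in CDSUM, against 367, 413 and 384 CPM in DMSO, and its log2 fold change lay between −0.02 and 0.05 in the 4 comparisons with an SE of 0.14 in each. UQCRC1, a core protein, was at 0.40 ± 0.18 in CDSUM and −0.01 ± 0.18 in CQWIN without a call, although with trends removed it was called higher in CDSUM, CDWIN and CQSUM, at 0.44, 0.61 and 0.54.

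Complex IV, cytochrome c oxidase, reduces oxygen, and its catalytic subunits come from the mitochondrial genome. The nuclear subunits measured here surround them. COX6C had 341, 351 and 325 CPM in CDSUM, 270, 329 and 294 in CDWIN, 175, 286 and 205 in CQSUM, and 324, 170 and 139 in CQWIN, against 104, 127 and 102 in DMSO. No PM2.5 library of any group fell within the DMSO range. The log2 fold change was 1.61 ± 0.25, 1.42 ± 0.24, 1.00 ± 0.24 and 0.92 ± 0.24, and 0.88, 0.80, 0.53 and 0.48 with trends removed, called in every case. COX7B was at 1.59 ± 0.30 in CDSUM and 0.83 ± 0.29 in CQWIN, and NDUFA4 at 1.40 ± 0.25 and 0.78 ± 0.25. Once trends were removed, COX6C was the only member of this complex called higher in CQWIN. COX4I1, COX5B, COX6A1, COX6B1 and COX7A2 were called higher in CDSUM and CDWIN, by 0.84 to 1.27, and in CQWIN none of them was called, at 0.35 to 0.63.

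COX5A and COX8A were not called in any comparison. COX5A had 283, 274 and 264 CPM in CDSUM, against 214, 252 and 214 CPM in DMSO, a difference of 0.27 ± 0.15. With both trends removed the direction was the opposite, at −0.41 in CDSUM (adjusted p = 0.00218), −0.25 in CDWIN (adjusted p = 0.0479), −0.25 in CQSUM (adjusted p = 0.0628) and −0.28 in CQWIN (adjusted p = 0.0440). Its transcript is 571 bases long. Several subunits of this complex have another isoform with a narrower tissue range. COX4I1, COX6A1, COX6B1, COX7A2 and COX8A, the broadly expressed forms, were abundant, at 50.6 ± 8.21 FPKM for COX6A1 to 459 ± 90.2 FPKM for COX6B1 in DMSO. Their partners were not tested for want of reads: COX4I2 and COX6A2 had 0 reads in all 15 libraries together, and COX6B2 had 55, COX7A1 61, COX7B2 2 and COX8C 8. NDUFA4L2, the form of NDUFA4 known to be induced by hypoxia, had 1.62, 1.58 and 1.96 CPM in CDSUM, against 1.20, 1.71 and 1.25 CPM in DMSO, and was called in no comparison.

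The ATP synthase has a catalytic head, a central stalk, a ring of c subunits in the membrane and a peripheral stalk. In the head, ATP5F1A (the alpha subunit) had 557, 527 and 447 CPM in CDSUM, 521, 446 and 592 in CDWIN, 469, 596 and 495 in CQSUM, and 632, 494 and 401 in CQWIN, against 344, 377 and 378 in DMSO. No PM2.5 library overlapped DMSO, and the log2 fold change was 0.48 ± 0.17, 0.50 ± 0.17, 0.50 ± 0.17 and 0.48 ± 0.17, called in all 4, but with trends removed (0.25 to 0.32) in none. ATP5F1B, the catalytic beta subunit and the most highly expressed member at 604 ± 79.1 FPKM in DMSO, was at 0.46 ± 0.19, 0.42 ± 0.19, 0.21 ± 0.19 and 0.05 ± 0.19, called in CDSUM.

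Some subunits of the central stalk and of the membrane part had larger differences, and others did not. ATP5F1E, the epsilon subunit of the central stalk, was at 1.52 ± 0.27, 1.45 ± 0.27, 0.98 ± 0.27 and 0.90 ± 0.27, and ATP5F1C, the gamma subunit, at 1.29 ± 0.25, 1.21 ± 0.25, 0.89 ± 0.25 and 0.71 ± 0.24. ATP5F1D, the delta subunit of the same stalk, had negative differences, with 129, 120 and 111 CPM in CDSUM, 124, 147 and 97.8 in CDWIN, 110, 114 and 91.0 in CQSUM, and 92.0, 98.3 and 65.8 in CQWIN, against 115, 177 and 119 in DMSO. Its log2 fold change was −0.68 ± 0.19 in CQWIN (adjusted p = 0.0143) and −0.38 ± 0.19 in CQSUM, not called. Without CQWIN 3 ATP5F1D was at −0.34 in CQWIN and without DMSO 2 at −0.46, and in neither case called. It has the highest GC content of the members, 69.3%, and with trends removed it was at −0.36 in CQWIN and −0.52 in CDSUM, both called.

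ATP5MD, a small membrane subunit, had 375, 383 and 336 CPM in CDSUM, 310, 401 and 307 in CDWIN, 183, 326 and 212 in CQSUM, and 302, 187 and 106 in CQWIN, against 103, 142 and 106 in DMSO. The log2 fold change of 1.64 ± 0.28 in CDSUM was the largest of the complex. The c ring is built from 1 mature peptide encoded by 3 genes, which did not share a change: ATP5MC3 was called higher in CDSUM and CDWIN (1.00 ± 0.23 and 0.99 ± 0.23), while ATP5MC1 and ATP5MC2 were called in no comparison, at 0.31 ± 0.18 and 0.20 ± 0.16 in CDSUM. With trends removed these were 0.41, −0.31 and −0.31 in CDSUM, all called. ATP5IF1, the inhibitor that binds the head when the membrane potential falls, was called higher in all 4 comparisons as counted, at 1.05 ± 0.22, 1.05 ± 0.22, 0.65 ± 0.22 and 0.64 ± 0.22. Once trends were removed, ATP5ME was the only member of this complex called higher in CQSUM or in CQWIN. ATP5IF1, ATP5MD, ATP5F1E and ATP5F1C were thus not called in those comparisons.

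The bases just before the RefSeq start are shown for NDUFA13, ATP5MD, COX7B and NDUFB3. These 4 genes were among those with the largest differences from DMSO. UQCRB and COX6C, with larger differences in CDSUM than COX7B and NDUFB3, are not shown. Sequences are from RefSeq on GRCh38.p14 and end at the base before the RefSeq start. They span chr19:19515975-19516224 on the plus strand (NDUFA13), chr10:103396476-103396725 on the minus strand (ATP5MD), chrX:77899218-77899467 on the plus strand (COX7B) and chr2:201071751-201072000 on the plus strand (NDUFB3). The deposited intervals of these genes begin further upstream, at 19515736 for NDUFA13, 103396492 for ATP5MD, 77899438 for COX7B and 201071433 for NDUFB3. The spans of NDUFA13 and NDUFB3 thus lie inside the counted gene, and those of ATP5MD and COX7B lie partly inside it. Capitals mark matches to the ETS-type motif CCGGAAG, the kind bound by GABPA, on either strand.
NDUFA13: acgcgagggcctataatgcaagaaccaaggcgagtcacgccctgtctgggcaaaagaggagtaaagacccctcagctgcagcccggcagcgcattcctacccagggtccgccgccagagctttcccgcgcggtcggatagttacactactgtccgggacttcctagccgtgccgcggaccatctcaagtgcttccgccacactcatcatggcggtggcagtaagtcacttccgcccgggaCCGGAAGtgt
ATP5MD: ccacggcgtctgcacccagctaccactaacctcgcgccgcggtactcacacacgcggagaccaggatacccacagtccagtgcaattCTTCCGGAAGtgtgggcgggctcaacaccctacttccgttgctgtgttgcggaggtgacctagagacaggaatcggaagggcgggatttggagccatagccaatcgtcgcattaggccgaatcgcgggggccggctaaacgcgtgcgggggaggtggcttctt
COX7B: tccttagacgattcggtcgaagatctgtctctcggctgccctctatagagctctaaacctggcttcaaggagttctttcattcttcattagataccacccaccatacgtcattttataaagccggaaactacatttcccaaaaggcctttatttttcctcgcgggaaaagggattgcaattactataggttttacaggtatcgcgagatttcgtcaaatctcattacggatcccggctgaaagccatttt
NDUFB3: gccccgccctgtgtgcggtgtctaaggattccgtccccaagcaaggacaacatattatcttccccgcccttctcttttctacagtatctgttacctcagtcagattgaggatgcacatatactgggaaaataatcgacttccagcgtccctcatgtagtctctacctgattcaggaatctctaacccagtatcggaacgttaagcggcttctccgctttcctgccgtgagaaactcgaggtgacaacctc

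NDUFA13 held 1 match and ATP5MD 2 that overlap each other on opposite strands, while COX7B and NDUFB3 held none of the 3 motifs searched. Among the 72 members with an entry, 20 (27.8%) held the NRF1 motif GCGCANGCG, 17 (23.6%) held CCGGAAG and 1 held the YY1 motif AAGATGGCG, on either strand in the 250 bases before the start. The shares over all 35116 RefSeq promoters were 6.56%, 8.52% and 0.652%. Among tested genes alone the shares were 28.8% of 66 members and 13.1% of 11280 genes for NRF1, and 25.8% and 15.6% for CCGGAAG. NRF1 and GABPA are factors known to act on respiratory chain genes, and a match is only a description of the letters.

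Between the PM2.5 groups few members were called. In CDWIN against CDSUM 2 were higher, with 8.17% of all tested genes higher and 8.42% called in either direction, and none was lower (0.244%). Libraries did not overlap for 4 members higher (16.9% of all tested genes) and 0 lower (6.14%). In CDSUM against CQSUM the same 2 genes, NDUFS1 and UQCRC2, were lower, with 13.7% of all tested genes. Each of these comparisons uses the same 3 CDSUM libraries.

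NDUFS1 (chromosome 2, 206114817 to 206159603) had 86.1, 67.1 and 73.8 CPM in CDSUM, 144, 95.8 and 139 in CDWIN, 120, 134 and 127 in CQSUM, and 160, 133 and 122 in CQWIN, against 83.3, 79.5 and 96.1 in DMSO. CDSUM libraries lay within or below the DMSO range and those of the other PM2.5 groups above it, except that CDWIN 2 fell within it. CDWIN was 0.74 ± 0.16 above CDSUM on the log2 scale (adjusted p = 0.00775), and CDSUM was −0.75 ± 0.16 from CQSUM (adjusted p = 0.00369). With trends removed these were 0.50 and −0.45, both still called.

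UQCRC2 (chromosome 16, 21952660 to 21983660), a core protein of complex III, had 161, 133 and 127 CPM in CDSUM, 262, 201 and 275 in CDWIN, 224, 247 and 233 in CQSUM, and 297, 230 and 180 in CQWIN, against 134, 146 and 158 in DMSO. Against DMSO it was called higher in CDWIN, CQSUM and CQWIN, by 0.75 ± 0.17, 0.68 ± 0.17 and 0.69 ± 0.17, and not in CDSUM, at −0.06 ± 0.17. CDWIN exceeded CDSUM by 0.81 ± 0.17 (adjusted p = 0.00622), and CDSUM differed from CQSUM by −0.74 ± 0.17. The GC content of the transcript was 43.9% for NDUFS1 and 45.2% for UQCRC2, which is not particular to them, since 16 tested members lay under 45%. The libraries with a positive GC slope were those of CDSUM and DMSO and CDWIN 2. CDWIN 2, with a GC slope of 0.13 against −0.17 and −0.22 in CDWIN 1 and 3, was the lowest CDWIN library for both genes. That did not hold for every member of low GC content, since NDUFB3, at 40.6%, was highest there. The part of the GC trend in the group difference was not tested beyond removing it. With trends removed UQCRC2 stayed called, at 0.73 and −0.70. Leaving out CDWIN 1 or CDWIN 3 left 1 of the 2 genes called in CDWIN against CDSUM, as did leaving out CDSUM 2.

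The interaction asks whether CDWIN exceeded CDSUM by more than CQWIN exceeded CQSUM. It called 0 members, where 1.99% of all tested genes were called higher, 0.0385% lower and 2.02% in either direction. It was 0.80 ± 0.25 for UQCRC2 (adjusted p = 0.110) and 0.62 ± 0.23 for NDUFS1 (adjusted p = 0.219). At an unadjusted p under 0.05 in edgeR there were 2 members higher (10.4% of all tested genes). DESeq2 called 0 members (3.37% of all tested genes higher and 0.109% lower) and gave no adjusted p for 2 members. With trends removed UQCRC2 was called in edgeR, at 0.72 (adjusted p = 0.0255), where 1.27% of tested genes were called higher.

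The median member was higher in the CD groups than in the CQ groups, by 0.36 in CDSUM against CQSUM and 0.48 in CDWIN against CQWIN, beside all-gene medians of 0.01 and −0.05. No member was called higher in either comparison in edgeR, where 0.167% and 0.00642% of all tested genes were. At an unadjusted p under 0.05, 18 and 43 members were higher, with 2.61% and 7.41% of all tested genes, and DESeq2 called 2 and 0 higher, with 0.495% and 0.0578%. Libraries did not overlap, with the CD group higher, for 27 members in CDSUM against CQSUM (9.32% of all tested genes) and 22 in CDWIN against CQWIN (6.56%), and with the CD group lower for 2 (22.5%) and 0 (6.69%). The result for CDSUM against CQSUM differed between fits, and the cause was not tested. A fit on these 2 groups alone, filtered and scaled anew, called 30 members higher and 2 lower, with 2.59% and 16.5% of its tested genes. All 15 libraries without the filter on low counts gave 38 higher and 2 lower, with 2.47% and 5.88%. The authors' deposited table has 42 higher and 2 lower of 84 with a value. It calls 3.24% of its genes higher and 9.67% lower. With trends removed 13 members were higher and 4 lower in CDSUM against CQSUM, with 2.26% and 9.07% of all tested genes, and none was called in CDWIN against CQWIN. The member medians were then 0.04 and 0.33, beside all-gene medians of −0.13 and −0.04. In CDWIN against CQWIN, leaving out CQWIN 1 gave 52 members higher and 0 lower, where 6.69% and 5.10% of all tested genes were called. CQWIN against CQSUM called no member in edgeR (0.0128% of all tested genes were higher, 0.00642% lower and 0.0193% either). At an unadjusted p under 0.05 there were 0 members (2.4% of all tested genes higher and 1.44% lower), and by DESeq2 0 (0.0707% either). The member median was −0.14, beside an all-gene median of 0.02. No member's libraries were apart in either direction there (4.09% of all tested genes higher and 3.08% lower).

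The genes of the mitochondrial genome, which encode the other subunits of complexes I, III, IV and V, had more calls lower than higher. Of 13, 1 was called higher and 11 lower in CDSUM, 1 and 7 in CDWIN, 0 and 6 in CQSUM and 0 and 2 in CQWIN. Lower calls also outnumbered higher ones over all tested genes, at 15.3% and 31.2%, 18.4% and 23.3%, 13.7% and 18.8%, and 11.6% and 15.8%. The count of 2 lower in CQWIN is near that share. The medians were −1.19, −0.48, −0.52 and −0.19 in the same order. With trends removed 12, 12, 13 and 7 were called lower and none higher, beside 28.1%, 16.3%, 10.2% and 8.77% of tested genes lower. MT-ND5, a proton-pumping subunit of complex I, had 346 ± 31.3 CPM in CDSUM and 1097 ± 289 CPM in DMSO (SD, n = 3 each), a log2 fold change of −1.66 ± 0.29. MT-ATP8 of the ATP synthase was at −1.40 ± 0.15 in CDSUM and −0.50 ± 0.15 in CQWIN. MT-ND4L and MT-ND6, of complex I, were at −1.48 ± 0.26 and −1.39 ± 0.27 in CDSUM. MT-ND3 was called higher in CDSUM and CDWIN, by 0.49 ± 0.18 and 0.53 ± 0.18, and had −0.02 and −0.36 with trends removed, neither called. The difference between nuclear and mitochondrial genes was not tested, and the capture of mitochondrial transcripts by the library kits is not described in the labels.

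Among 57 assembly factors, electron carriers and other subunits, of which COX7A2L is also a member, 32 were called higher and 2 lower in CDSUM, 34 and 2 in CDWIN, 19 and 1 in CQSUM and 9 and 1 in CQWIN. The shares of all tested genes called higher and lower were 15.3% and 31.2% in CDSUM, 18.4% and 23.3% in CDWIN, 13.7% and 18.8% in CQSUM, and 11.6% and 15.8% in CQWIN. With trends removed the counts were 22 and 7, 18 and 3, 5 and 3, and 4 and 2 in the same order, beside 11.9% and 28.1%, 13.8% and 16.3%, 7.78% and 10.2%, and 6.87% and 8.77% of all tested genes. TMEM126B, a factor of complex I assembly, had 79.2 ± 4.66 CPM in CDSUM and 28.5 ± 4.15 CPM in DMSO (SD, n = 3 each), and its log2 fold change was 1.48 ± 0.23 in CDSUM and 1.04 ± 0.23 in CQWIN. COA6, a factor of cytochrome c oxidase assembly, was at 1.26 ± 0.23 and 0.83 ± 0.23, and HIGD1A at 1.29 ± 0.24 and 0.81 ± 0.24. With trends removed these 3 genes were called in CDSUM, at 1.20, 0.62 and 0.80, and not in CQWIN, at 0.40, 0.21 and 0.08. LRPPRC, which stabilises mitochondrial messenger RNA, had 34.6 ± 0.588 CPM in CDSUM and 106 ± 25.8 CPM in DMSO, a difference of −1.62 ± 0.31 as counted. It was not called in the other 3, at −0.38 in CDWIN, −0.01 in CQSUM and 0.03 in CQWIN. COX15 and COX10, enzymes of heme A synthesis, were called lower, COX15 in CDSUM, CDWIN and CQSUM at −0.58 to −0.56 and COX10 in CDWIN at −0.52 ± 0.20. COX20, another factor of oxidase assembly, was called higher in CDWIN and CQSUM, at 1.36 ± 0.50 and 1.42 ± 0.49, and ACAD9, of complex I assembly, lower in CQWIN, at −0.38 ± 0.13. None of these 3 calls held with trends removed, while COX10 was then called lower in all 4, at −1.29 to −0.85.

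Of 13 tested transcriptional regulators of mitochondrial genes, 1 was called higher and 6 lower in CDSUM (15.3% and 31.2% of all tested genes). The counts were 3 and 5 in CDWIN (18.4% and 23.3%) and 2 and 4 in CQSUM (13.7% and 18.8%). In CQWIN they were 1 and 3 (11.6% and 15.8%). The counts higher are near or below those shares. With trends removed 2 were called higher and 5 lower in CDSUM (11.9% and 28.1%) and 0 and 2 in CDWIN (13.8% and 16.3%). In CQSUM they were 0 and 1 (7.78% and 10.2%) and in CQWIN 0 and 4 (6.87% and 8.77%). NRF1 itself was called in none, at 0.19 ± 0.15 in CDSUM and 0.02 ± 0.16 in CQWIN. GABPA had 2.14 ± 0.643 CPM in CDSUM and 6.71 ± 2.25 CPM in DMSO, a log2 fold change of −1.65 ± 0.41 as counted. It was not called in the others, at −0.46, 0.22 and 0.28. It shares 413 exon bases with ATP5PF on the opposite strand. PPRC1, a coactivator of the PGC-1 family, was lower in all 4, at −1.03 ± 0.21, −1.06 ± 0.21, −1.26 ± 0.21 and −1.16 ± 0.21, as was POLRMT, the mitochondrial RNA polymerase, at −0.88 ± 0.16, −0.77 ± 0.16, −1.06 ± 0.16 and −1.16 ± 0.16. With trends removed PPRC1 was at −0.52, −0.38, −0.67 and −0.73, not called in CDWIN, and POLRMT at −0.31, −0.07, −0.33 and −0.42, called in CDSUM and CQWIN. TFB1M was called higher in all 4 as counted, by 0.71 to 0.93, and with trends removed only in CDSUM, at 0.43, with 0.23, 0.42 and 0.29 in CDWIN, CQSUM and CQWIN. TFAM, which packages mitochondrial DNA, was called higher in CDWIN and CQSUM, by 0.45 ± 0.16 and 0.44 ± 0.16, and TFB2M, a factor of mitochondrial transcription, in CDWIN, by 0.55 ± 0.17. Neither stayed called higher with trends removed: TFAM was then at −0.38, −0.32, −0.28 and −0.42, called lower in CDSUM and CQWIN, and TFB2M had 0.13 in CDWIN, not called. HIF1A, a factor of the response to hypoxia, was called lower in CDSUM as counted, at −1.14 ± 0.35, and not with trends removed, at −0.63. NRF1 was named for its motif, outside the rule for the other genes.

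Import and carrier proteins showed calls in both directions, with 4 of 20 higher and 5 lower in CDSUM, 4 and 2 in CDWIN, 3 and 2 in CQSUM and 0 and 2 in CQWIN. Beside the shares of all tested genes given for the assembly factors, these counts are near or below the background. With trends removed they were 4 and 6, 4 and 3, 1 and 3, and 1 and 3. The paired mitochondrial chaperonins differed in CDSUM as counted: HSPE1, the small co-chaperonin, was at 1.08 ± 0.24 and HSPD1, the large chaperonin, at −1.12 ± 0.19. The part of the length trend in that difference was not tested. VDAC3, a pore of the outer membrane, and TIMM23, of the inner membrane import pore, were called higher in CDSUM, CDWIN and CQSUM, by 0.76 to 1.06 and 0.55 to 0.81, and PHB, prohibitin, in CDSUM and CDWIN, by 0.65 ± 0.19 and 0.61 ± 0.19. With trends removed VDAC3 was called in CDSUM alone, TIMM23 in CDWIN alone, and PHB in both CDSUM and CDWIN. TOMM40, the import pore of the outer membrane, was lower in all 4, at −0.62 ± 0.17, −0.89 ± 0.17, −0.82 ± 0.17 and −1.002 ± 0.17. HSPA9, the chaperone that drives import, was called lower in CDSUM, at −0.64 ± 0.17, and not in the other 3, at 0.02 to 0.25. CS, citrate synthase, had 87.8 ± 9.21 CPM in CDSUM and 160 ± 12.3 CPM in DMSO and was called lower in all 4, at −0.86 ± 0.16, −0.84 ± 0.16, −0.84 ± 0.16 and −0.70 ± 0.16. With trends removed CS was at −0.74, −0.67, −0.75 and −0.68.

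The counting limits what can be said of single genes. Of the 90 genes, 32 share exon bases with a gene on the opposite strand and 13 with a gene on their own strand, and no label says whether counting used strand, so such reads may be shared. NDUFB8, with 288 reads a library, shares 325 bases with HIF1AN at 1471 reads, and NDUFA4L2, with 27.4 reads, shares 33 bases with SHMT2 at 3869. For NDUFA1, NDUFB11 and ATP5ME more than 40% of exon bases overlap a gene on the other strand (44.5% with RNF113A, 44.9% with RBM10 and 61.6% with MYL5). NDUFA7, a complex I subunit with 94 reads in all 15 libraries, was not tested, and nor were ATP5MF-PTCD1, NDUFC2-KCTD14 (2 reads each) and ATP5MGL (0 reads).

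In the authors' deposited table, at its adjusted p under 0.05, 72 members were higher and 0 lower in CDSUM (15.3% and 15.1% of its genes), 66 and 0 in CDWIN (13% and 12.8%), 55 and 1 in CQSUM (11.6% and 12.3%) and 10 and 1 in CQWIN (5.24% and 7.18%). For SDHA the authors' deposited table gives log2 fold changes of −0.08, −0.28, −0.32 and −0.31, with an adjusted p of 0.607, 0.109, 0.0278 and 0.180.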

How the data were processed

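RNA-seq of 15 libraries was analysed from 1 table in which the authors deposited raw read counts per gene, FPKM values, and their own log2 fold changes with adjusted p-values for each comparison, per the file headers. No source used here names the aligner or the counting tool. The labels name mouse genome builds, but all 58735 gene identifiers are human, with the start and end of GENCODE release 29 (GRCh38). The FPKM values of the authors divide by the deposited gene length.

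Counts were tested with edgeR 4.0.16 in R 4.3.3 (quasi-likelihood test, TMM, default filter on low counts), in 1 fit of all 5 groups with 10 residual degrees of freedom. P-values were adjusted by Benjamini-Hochberg over 15565 genes, with a threshold of 0.05, and each SE is the absolute log2 fold change divided by the root of the F statistic. No 2 libraries agreed within sampling noise (chi-square per degree of freedom at least 5.15). Trends with GC content and log2 length were removed per library as offsets, from natural splines with 6 degrees of freedom over 15558 genes, using the GENCODE transcript of median length. DESeq2 1.42.0, other scalings and filters, each replicate left out and a replicate block were alternatives. On data simulated for CDSUM against DMSO over 15083 genes, 138 of 200 changes of 2-fold were recovered, with 0.0739% of unchanged genes called. With a length bias added, over 15112 genes, 6.57% of unchanged genes were called before and 0.0469% after trend removal.

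Named in the text were the members with the largest non-overlapping changes per complex and comparison, core subunits and isoform pairs whatever their result, called members between PM2.5 groups, and up to 4 called genes per direction from each list. The members, the lists and this rule were chosen with earlier results of these data known.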

Additional observations from a re-analysis of the deposited data

How the results depend on the processing

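Percentages in brackets here are shares of all tested genes called in the same direction under the same setting. Members called higher in CDSUM numbered 38 with both trends removed (11.9%). They were 39 (11.6%) with the principal transcript in place of the one of median length, a choice added after seeing the data. In CQSUM they were 28 with the length trend removed (14.2%) and 17 with both, for either transcript (7.78% and 7.62%). In CQWIN they were 13 with the GC trend removed (7.04%), 8 with both (6.87%) and 6 with the principal transcript (7.08%). A fit of the compared groups only gave 2 there (5.43%), and leaving out CDWIN 2 and CQWIN 3 gave 56 (18.6%). Members called lower in CDSUM were 0 with DESeq2 size factors (23.2%), with DESeq2 (24.4%), without a filter (10.1%) and with the compared groups only (27.5%). They were 4 with the length trend removed (25.8%) or the principal transcript (27.7%), and 7 with both trends removed (28.1%). In CDWIN they were 0 with size factors (19.6%), no filter (11%), GC (22.2%) or the compared groups only (22.7%). With length they were 3 (20.6%) and with the principal transcript 2 (15.8%). In CQSUM they were 0 with size factors (15.5%), no filter (8.81%), GC (12.9%) or both (10.2%), and 4 with length (18.6%). In CQWIN they were 1 with size factors (13.5%) or no filter (7.48%). With GC (9.1%) or the compared groups only (9.83%) they were 0, and with length 5 (17.2%). Between PM2.5 groups, members and all tested genes were counted in either direction. No filter gave 1 in CDWIN against CDSUM (4.48%) and 21, all of them higher, in CDWIN against CQWIN (1.76%). For CDSUM against CQSUM the count was 40 with no filter (8.35%), 38 of them higher, and 32 with the compared groups only (19.1%), 30 of them higher. It was 4 with DESeq2 (14.1%), 11 with GC (9.49%), 17 with both (11.3%) and 18 with the principal transcript (11.1%). Without CDWIN 2 and CQWIN 3 it was 9 (16%). The interaction called 1 with length (3.17%), with both (1.34%) and with the principal transcript (1.42%), and 2 without those libraries (5.64%).

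With 1 library left out, members higher ranged over 50 to 60 in CDSUM (10.7% to 14%) and 51 to 63 in CDWIN (13.2% to 19.4%). They ranged over 9 to 46 in CQSUM (6.99% to 12.6%) and 2 to 62 in CQWIN (5.4% to 24.3%). Members lower were 0 in every such fit for CDSUM (23% to 27.8%). They were 0 to 1 in CDWIN (16.6% to 21.6%), CQSUM (12.1% to 15.7%) and CQWIN (7.79% to 14%). Between groups, in either direction, members ranged over 1 to 2 in CDWIN against CDSUM (3.46% to 11.7%). They were 0 in all for CQWIN against CQSUM (0% to 0.0688%). In CDSUM against CQSUM they were 2 to 11 (9.31% to 14.2%), with 11 without CQSUM 2. They were 0 to 52 in CDWIN against CQWIN (0% to 11.8%). For the interaction they were 0 to 2 (0% to 5.52%), with 2 without CDWIN 2. With a replicate block, 64, 63, 49 and 26 members were higher in CDSUM, CDWIN, CQSUM and CQWIN (15.8%, 19%, 14.8% and 12.2%). Those lower were 1, 1, 1 and 2 (32%, 24.4%, 19.8% and 17%). However, same-numbered libraries did not deviate together (correlations −0.41 to 0.39).

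COX5A changed direction with length, both trends and the principal transcript: −0.33, −0.41 and −0.37 in CDSUM, −0.26, −0.25 and −0.27 in CDWIN, and −0.26 with length and −0.33 with the principal transcript in CQSUM. So did ATP5MC1 in CDSUM (−0.31 with both, −0.37 with the principal transcript), ATP5MC2 in CDSUM (−0.34 with length, −0.31 with both), NDUFB3 in CQWIN (−0.011 with both) and ATP5MD in CQWIN (−0.027 with the principal transcript). The causes were not tested.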
